A study of Mus musculus with 2 samples.

Results

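The genes described here are the 3 main subunits of the hypoxia-inducible factors, Hif1a, Epas1 and Arnt, and the 5 genes whose products sense oxygen or act on its signal, Egln1, Egln2, Egln3, Hif1an and Vhl. They were chosen by name, as 8 of the 27998 genes listed in the deposited tables, and not by a rule on measured values. Earlier results of these data were known when they were chosen. The study profiled natural killer (NK) cells from subcutaneous RMA-S tumors, grown from a mouse lymphoma line, by droplet single-cell RNA sequencing of transcript 3′ ends. Cells sorted as CD3ε- NK1.1+ gave 2 libraries: a KO library from mice with Hif1a knocked out in NK cells, and a WT library from WT mice, both taken 2 weeks after tumor cells were injected. The labels name neither the Cre driver, nor the deleted part of Hif1a, nor the strain, the age or the number of mice behind a library. With 1 library per genotype no test between genotypes was possible. Every interval below is a 95% interval for counting error only, which leaves out differences between mice and between library preparations. Intervals of levels and ratios also take UMIs as independent, although several can come from the same cell.

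Hypoxia-inducible factors are heterodimers of an oxygen-labile α subunit, HIF-1α (Hif1a) or HIF-2α (Epas1), with the stable β subunit ARNT. When oxygen is present the prolyl hydroxylases PHD2 (Egln1), PHD1 (Egln2) and PHD3 (Egln3) mark the α subunit, the VHL protein binds the mark, and a ubiquitin ligase sends the subunit to the proteasome, while the asparagine hydroxylase FIH (Hif1an) blocks its coactivator binding. Most of this control acts on the protein, which transcript counts do not measure. In NK cells, HIF-1α is known to support the glycolytic response to low oxygen.

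The KO library held 3110 barcodes with 13407906 unique molecular identifiers (UMIs, each standing for a captured transcript), and the WT library 3574 barcodes with 19553440, of which 19 barcode sequences occurred in both. After cells with under 500 genes or over 10% mitochondrial UMIs were left out, 2910 KO and 3310 WT cells were called NK-like, with medians of 3748 and 4420 UMIs per cell. In these cells the NK markers Ncr1 and Klrb1c, which encodes NK1.1, stood at 472 and 817 CPM (a gene's UMIs scaled to a total of 1000000) in the KO library and 428 and 743 CPM in the WT library, while Cd3e stood at 1.21 and 3.03 CPM. The cells fell into 5 sub-clusters, called here by number and leading genes: NK 0 (Vegfa, Nr4a1, Gadd45b), NK 1 (Hbb-bs, Frat2, Rgs16), NK 2 (Hspa1a, Fos, S1pr5), NK 3 (Ltb, Cxcr3, Xcl1) and NK 4 (Gzmd to Gzmg). Different sub-clusters held most cells of each library, since NK 0 had 1689 KO and 145 WT cells, NK 1 had 271 and 1420, NK 2 had 362 and 1046, NK 3 had 532 and 543, and NK 4 had 56 and 156. A T-like group (72 KO and 117 WT cells with Cd3d, Cd3e and Cd3g) and a group led by Cd74 and Tmem176b (85 and 128 cells) made up the rest. The Tmem176b group was left unnamed. Its larger part (59 KO and 79 WT cells) had 4 markers of type 1 innate lymphoid cells and 1 of dendritic cells among 10 leading genes. Its smaller part (26 and 49 cells) had 3 of each.

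Taken over all NK-like cells, none of the 8 genes differed by 1.5-fold or more between the libraries. The same bound was passed upward in KO by 5.94% and downward by 2.73% of the 8010 genes that reached 200 UMIs, a group that took in 7 of the 8 members. The median log2 ratio of KO over WT was 0.07 for the members and 0.04 for the 8010 genes. The interval of the ratio left out 0 for 2 members, Epas1 (lower in KO) and Arnt (higher in KO), against 51.4% of the 8010 genes.

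**Figure D1:**
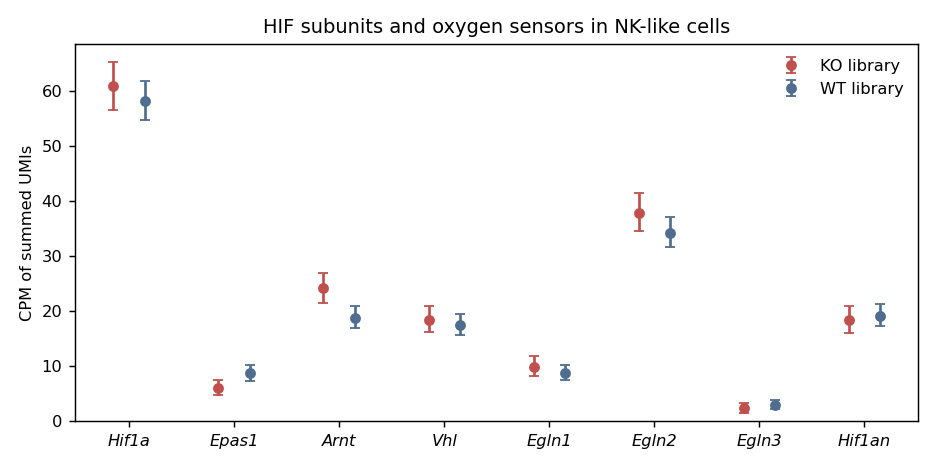
Level of each of the 8 genes in all NK-like cells of the KO library (red) and the WT library (blue), in CPM of summed UMIs, with exact Poisson 95% intervals for counting error. The intervals of the 2 libraries overlapped for Hif1a and for each of the other members except Arnt, and levels are not to be compared between genes, since 3′ capture differs from gene to gene.

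**Figure D2:**
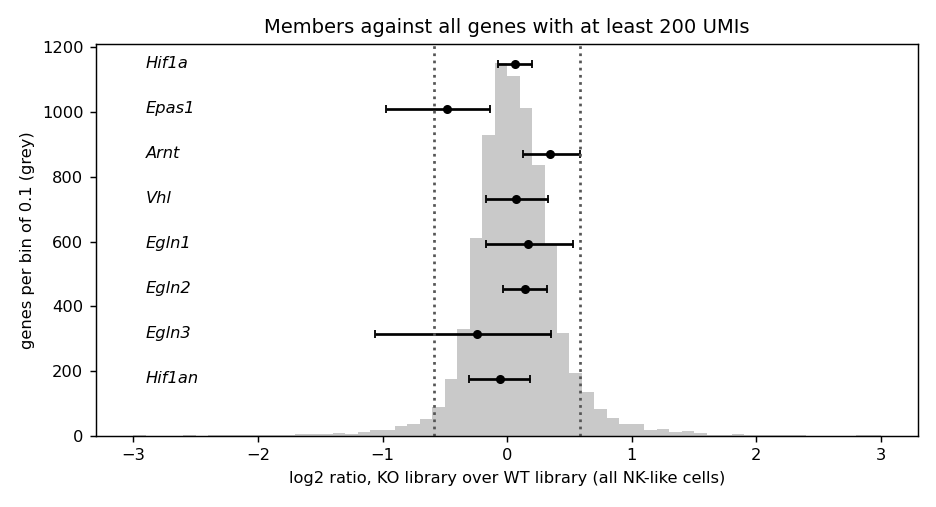
Log2 ratio of KO over WT in NK-like cells for the 8 genes (points with 95% intervals for counting error, the height being only their order) over the distribution of the 8010 genes with at least 200 UMIs (grey, values past the axis drawn at its ends). Dotted lines mark a 1.5-fold difference, and all 8 points lie between them.

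Hif1a, the targeted gene (chromosome 12, 73901375 to 73947530, plus strand, GRCm38), gave 753 UMIs in NK-like cells of the KO library and 1057 in the WT library. Its level was 60.9 CPM (56.7 to 65.5) in KO and 58.3 CPM (54.8 to 61.9) in WT, a log2 ratio of 0.06 (-0.07 to 0.20). The level in the library labelled KO could not be told from that in WT within counting error. These tags come from the 3′ end of the transcript, and as the labels do not say which part of the gene was deleted, they neither check the label nor show whether a functional transcript was made. In the annotation the coding model Gm49321 overlaps Hif1a on the same strand and Gm15283 overlaps it on the opposite strand. A share of reads could belong to Gm49321, or to Gm15283 if strand was not used in counting. At an equal depth of 2500 UMIs per cell, a Hif1a UMI was found in 13.3% of the KO cells and 13.7% of the WT cells, a difference of -0.40 percentage points (-2.20 to 1.41).

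Within each library Hif1a varied more between cell states than it did between the libraries. It was lowest in NK 2, the cells led by Hspa1a, Fos and S1pr5, at 35.7 CPM (26.3 to 47.3) in KO and 41.7 CPM (36.1 to 47.9) in WT. In KO the levels ran from 66.3 CPM in NK 0 and 64.6 in NK 1 through 63.2 in NK 4, 62.6 in T-like cells, 57.0 in NK 3 and 49.4 in the Tmem176b group. In WT the order was NK 4 at 70.4 CPM, NK 1 at 69.1, NK 0 at 63.7, the Tmem176b group at 56.9, T-like cells at 56.3 and NK 3 at 48.2. Neighbours in either order had overlapping intervals. NK 2 was separated by its interval from NK 0, NK 1 and NK 3 in KO, and from NK 1 and NK 4 in WT, where these 2 were also apart from NK 3. The highest NK-like sub-cluster was 1.86-fold (1.38 to 2.55) above the lowest in KO and 1.69-fold (1.37 to 2.08) in WT. Highest and lowest were picked from the same counts, which these intervals do not allow for. At equal depth a Hif1a UMI was seen in 10.4% of KO and 10.2% of WT cells of NK 2, against 16.4% and 16.5% of NK 1, 13.5% and 12.8% of NK 0, 13.0% and 12.2% of NK 3, and 12.0% and 16.8% of NK 4. At this depth the interval of NK 2 was apart from that of NK 1 in WT (8.45 to 12.3 against 14.6 to 18.6) and overlapped those of the other NK-like sub-clusters, and all of them in KO.

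**Figure D3:**
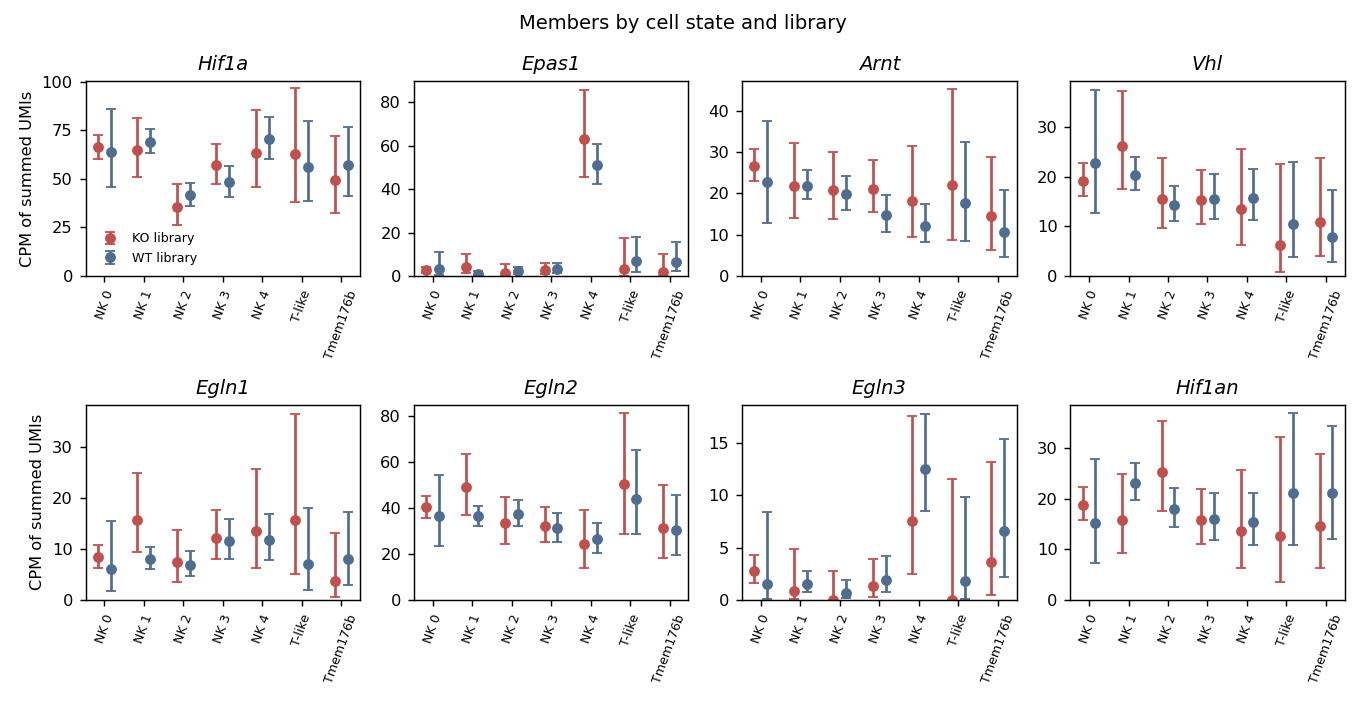
Level of each gene in the 5 NK-like sub-clusters, T-like cells and the Tmem176b group, KO library in red and WT library in blue, in CPM with exact Poisson 95% intervals for counting error and a separate axis for each gene. Hif1a has its low point in NK 2 in both libraries, and Epas1 and Egln3 have their high point in NK 4.

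A finer clustering of the NK-like cells gave 9 sub-clusters, which cross the 5 above only in part, and set apart groups with higher and lower Hif1a. The groups led by Vegfa and by Nr4a1 drew 98.9% and 99.1% of their KO cells from NK 0, but 71.6% and 82.5% of their WT cells. Cells led by Vegfa, Cxcr4 and Crem had 82.8 CPM (74.1 to 92.2) in KO and 90.5 CPM (61.5 to 128) in WT. Cells led by Nr4a1, Ccl4 and Nfkbid, genes of the early activation and NF-κB response, had 44.2 CPM (37.0 to 52.5) in KO and 35.9 CPM (20.1 to 59.2) in WT. The intervals of these groups were apart in both libraries, although the WT values rested on 31 and 15 UMIs. Cells led by Emb, Cd27 and Tcf7, which mark less mature NK cells, had 75.6 CPM in KO and 79.7 CPM in WT. Those led by Hspa1a, S1pr5 and Zeb2, of which S1pr5 and Zeb2 mark mature NK cells, had the lowest level in KO, at 25.5 CPM (14.9 to 40.9), and 37.7 CPM (30.6 to 46.0) in WT. The other group with S1pr5 and Zeb2 among its leading genes, led by Hbb-bs, had 46.7 CPM (30.5 to 68.4) in KO and 39.7 CPM (25.7 to 58.6) in WT. Cells led by Ltb, Cxcr3 and Cd160 had 59.4 CPM in KO and 46.3 CPM in WT. A link of Hif1a with maturity was not tested. Cells led by Itgb2, Klrg1 and Ccl5 had 30.2 CPM in KO (14 UMIs in 95 cells) and 58.5 CPM in WT (192 UMIs in 661 cells), a log2 ratio of -0.93 (-1.85 to -0.17). In a coarser clustering (resolution 0.4) the group led by Itgb2, Klrg1 and Ccl5 had overlapping intervals, 44.8 CPM (29.8 to 64.7) against 61.6 CPM (54.5 to 69.3), and in NK 1 the log2 ratio was -0.10 (-0.47 to 0.26). Within these 9 sub-clusters, 37 ratios of a member rested on at least 50 UMIs, and the interval left out 0 for 2 of them, this one and Arnt in cells led by Hspa1a, Fos and Jun (34.4 against 15.9 CPM), against 15.2% of all 51218 such ratios over genes.

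**Figure D4:**
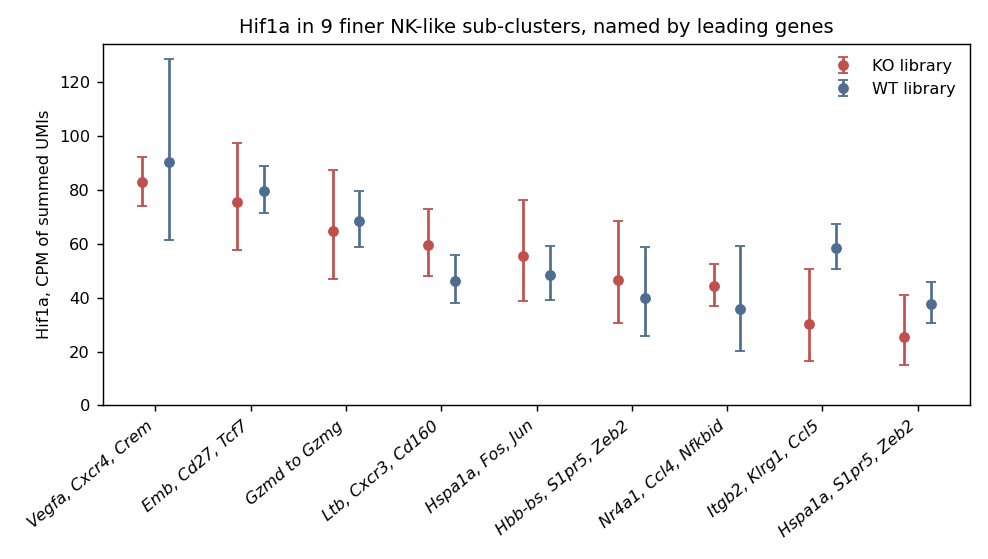
Hif1a level in CPM in 9 finer NK-like sub-clusters named by leading genes and ordered by the KO value, KO library in red and WT library in blue, with exact Poisson 95% intervals for counting error. The sub-clusters led by Vegfa and by Emb stand highest in both libraries.

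Epas1, which encodes HIF-2α (chromosome 17, 86753700 to 86833410, plus strand), was rare and confined for the most part to a small group of cells. It gave 73 UMIs in KO and 157 in WT, or 5.91 CPM (4.63 to 7.43) against 8.66 CPM (7.35 to 10.1), a log2 ratio of -0.48 (-0.97 to -0.14). NK 4 held 168 of these 230 UMIs in 212 of 6220 NK-like cells. Its level there was 63.2 CPM (45.6 to 85.5) in KO, with a UMI in 14 of 56 cells, and 51.0 CPM (42.5 to 60.7) in WT, with a UMI in 42 of 156 cells. The other NK-like sub-clusters lay between 1.49 and 4.36 CPM in KO and between 1.12 and 3.19 CPM in WT, and T-like cells had 3.13 and 7.04 CPM. NK 4 was thus apart from each of the 6 other states in both libraries. The 10 cells with the most Epas1 UMIs held 90.5% of those of NK 4 in KO and 57.9% in WT. The intervals do not allow for this.

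The lower Epas1 level of the KO library over all NK-like cells went with its smaller share of NK 4 cells. NK 4 made up 1.92% of the NK-like cells in KO and 4.71% in WT. With NK 4 left out, Epas1 stood at 2.65 CPM in KO and 1.98 CPM in WT, on 31 UMIs in each library, a log2 ratio of 0.29 (-0.34 to 1.19). Once each KO sub-cluster was given its WT share of cells, the log2 ratio was 0.28. Cells of NK 4 were deep, with medians of 11057 UMIs in KO and 13422 in WT, so doublets could lie among them, and none were called. At an equal 2500 UMIs per cell, 8.0% of KO and 9.03% of WT cells of NK 4 still had an Epas1 UMI, against at most 0.667% in any other NK-like sub-cluster of either library.

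NK 4 was itself mixed, and a second clustering of its cells, chosen after these values were seen, gave 5 groups. In WT, cells led by Gzmd, Gzmg and Mcpt8 had the highest level of Epas1, 126.5 CPM (103 to 154) from 102 UMIs in 26 of 34 cells, apart by its interval from the other groups except the 2 cells of the Pxdc1 group. In KO they had 170 CPM (77.5 to 322), from 9 UMIs in 2 of 4 cells, an interval that overlapped those of the groups led by Pxdc1 and by Ctss. Gzmd to Gzmg encode granzymes, serine proteases of cytotoxic granules. Over NK 4 in WT, Gzmg (4566 against 231 CPM) and Gzmd (5398 against 300 CPM) were higher in cells with an Epas1 UMI than in those without. In the 14 KO cells with an Epas1 UMI, Gzmg was lower (473 against 1220 CPM) and Gzmd higher (1336 against 1144 CPM) than in those without. Of the KO Gzmg UMIs, 624 came from 3 cells of the group led by Gzmd, Gzmg and Mcpt8. A group led by Pxdc1 and Il21r, almost all from the KO library, had 67.5 CPM (42.3 to 102) on 22 UMIs in 8 of 28 KO cells, and its 2 WT cells had no Epas1 UMI. Cells led by Ctss and Cd74 had 116 CPM in KO (7 UMIs, 2 of 7 cells) and 30.8 CPM in WT (18 UMIs, 11 of 38 cells). The group led by Neil3, Top2a and histone genes, which are made during cell division, had only 5.34 CPM (1.73 to 12.5) in the 76 WT cells and 23.5 CPM (6.40 to 60.1) in the 11 KO cells. Cells of NK 4 with an Epas1 UMI had the division marker Mki67 at 55.7 CPM in KO and 78.3 CPM in WT, against 103 and 153 CPM in those without.

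Epas1 is widely known as a gene of endothelial cells, and the endothelial markers were checked beside it. Of 8 endothelial markers, Cdh5, Tek and Cldn5 had no UMI in any NK-like cell of either library, and Pecam1, at 61.7 CPM in KO and 56.0 CPM in WT, made up almost the whole summed level of the list. In cells of NK 4 with an Epas1 UMI, Cdh5, Kdr, Tek and Cldn5 were at 0 in both libraries. The same cells had Ncr1 at 209 CPM in KO and 245 CPM in WT, against 352 and 316 CPM in cells of NK 4 without an Epas1 UMI. Klrb1c stood at 353 and 242 CPM in them, against 497 and 381 CPM. Pecam1 stood at 32.5 and 89.8 CPM, against 73.6 and 56.8 CPM. NK markers were thus present in cells with Epas1, at lower levels than in the other cells of NK 4. Cells with an Epas1 UMI were also deeper, with medians of 16991 against 9629.5 UMIs in KO and 22159 against 11974 in WT. In WT the sets also drew differently on the groups within NK 4. The part of these differences in the Epas1 level was not tested.

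**Figure D5:**
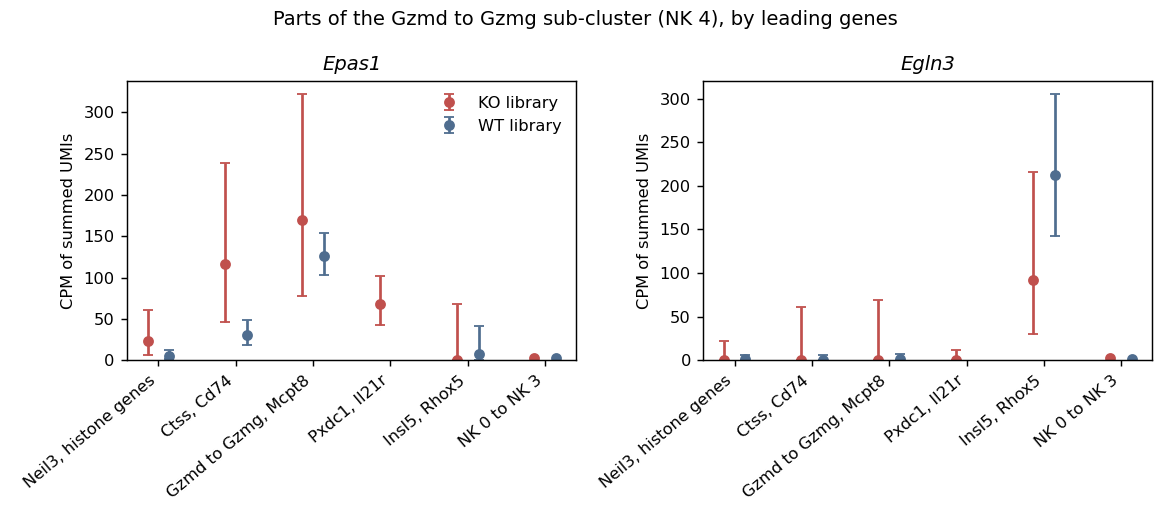
Epas1 (left) and Egln3 (right) in 5 groups within NK 4, named by leading genes, and in NK 0 to NK 3 together, in CPM, KO library in red and WT library in blue, with exact Poisson 95% intervals for the groups. The 2 WT cells of the Pxdc1 group are not drawn. In WT Epas1 is highest in the group led by Gzmd to Gzmg, while in KO the interval of that group overlaps others. Egln3 is highest in the 12 cells led by Insl5 and Rhox5.

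Arnt, the shared β subunit (chromosome 3, 95434388 to 95497240, plus strand), was the member most clearly higher in the KO library. It gave 298 UMIs in KO and 341 in WT, 24.1 CPM (21.5 to 27.0) against 18.8 CPM (16.9 to 20.9), a log2 ratio of 0.34 (0.13 to 0.59). Its ratio lay at or above those of 84.2% of the 8010 genes. At equal depth 5.59% of KO and 4.75% of WT cells had an Arnt UMI, and the interval of that difference, -0.34 to 2.04 percentage points, held 0. The level was highest in NK 0 in both libraries, at 26.7 CPM in KO and 22.8 CPM in WT, and lowest in the Tmem176b group, at 14.6 and 10.6 CPM. Most of these states could not be told apart, since the intervals were separate only for NK 1 above NK 4 in WT. Within the 5 NK-like sub-clusters, the interval of the KO over WT ratio of Arnt held 0 in each. The ratio was 0.16 when KO sub-clusters took their WT shares and 0.17 without cells that carried UMIs of 3 or more S and G2M genes. The annotated pseudogene Gm42672 overlaps Arnt on the same strand, as the unclassified model AC096777.1 overlaps Epas1, and how reads were split was not stated.

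Vhl, the substrate receptor of the ligase (chromosome 6, 113623959 to 113631633, plus strand), stood at 18.5 CPM (16.1 to 21) in KO and 17.5 CPM (15.6 to 19.5) in WT, from 228 and 317 UMIs. The log2 ratio was 0.07 (-0.17 to 0.33), so a difference beyond 0.33 on the log2 scale lay outside what counting error allows. Its level was highest in NK 1 in KO, at 26.2 CPM, and in NK 0 in WT, at 22.8 CPM, and it was 6.26 CPM in T-like cells of KO, on 2 UMIs, and 7.94 CPM in the Tmem176b group of WT, on 6 UMIs. In WT the intervals of NK 1 and the Tmem176b group were apart, and in KO no 2 states were.

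The 3 prolyl hydroxylase genes have different known links to HIF: Egln1 and Egln3 are themselves HIF targets, and Egln2 is not usually counted among them. HIF binds sites with the core ACGTG or GCGTG, so the RefSeq promoter windows (GRCm38.p6) are shown for these genes, 5′ to 3′ on the strand of the gene, with each core on either strand in capitals. The window of Egln1 lies at chr8:124949325-124949504 (minus strand), that of Egln2 at chr7:27166803-27167052 (minus) and that of Egln3 at chr12:54203875-54204124 (minus).
Egln1: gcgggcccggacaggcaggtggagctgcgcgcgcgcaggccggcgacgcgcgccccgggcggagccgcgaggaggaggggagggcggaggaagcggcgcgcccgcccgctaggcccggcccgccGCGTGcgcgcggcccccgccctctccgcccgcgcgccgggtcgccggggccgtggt
Egln2: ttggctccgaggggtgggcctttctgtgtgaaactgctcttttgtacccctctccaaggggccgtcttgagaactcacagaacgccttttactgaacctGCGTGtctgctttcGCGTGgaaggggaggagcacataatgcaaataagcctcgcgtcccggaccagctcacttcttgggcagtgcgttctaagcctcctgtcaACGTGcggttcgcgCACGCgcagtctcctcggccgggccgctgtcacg
Egln3: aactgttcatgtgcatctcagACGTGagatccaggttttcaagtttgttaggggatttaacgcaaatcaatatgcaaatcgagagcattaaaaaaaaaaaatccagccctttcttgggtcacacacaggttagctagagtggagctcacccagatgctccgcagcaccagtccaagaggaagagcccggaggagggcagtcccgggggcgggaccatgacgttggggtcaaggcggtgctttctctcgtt
Cores were counted in the 250 bases before the RefSeq start, with overlapping matches counted separately. Egln2 had 4 in the window shown, Egln3 had 1, at 229 bases before the start, and Egln1 had 2, of which the nearer one, at 68 bases, falls in bases that GENCODE places inside the gene and that are not shown. A further start of Egln2 had 1, Arnt had 1, Hif1a had 3, and Vhl and Hif1an had none. Over all 32851 promoters of the table, 38.6% held at least 1 core and 16.7% at least 2, so a match is common and describes only the letters. Of the 8 genes, 7 had an entry.

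Egln2 (chromosome 7, 27158658 to 27166802, minus strand) gave 469 UMIs in KO and 622 in WT. Its level was 38.0 CPM (34.6 to 41.6) in KO and 34.3 CPM (31.6 to 37.1) in WT, a log2 ratio of 0.14 (-0.03 to 0.32). Cyp2t4 overlaps Egln2 on the opposite strand, and the sources used here do not state whether strand was used in counting. Among the NK-like sub-clusters Egln2 was lowest in NK 4 in both libraries, at 24.1 CPM (13.8 to 39.1) in KO and 26.3 CPM (20.3 to 33.5) in WT. It was highest in T-like cells, at 50.1 CPM (28.6 to 81.4) and 44 CPM (28.5 to 64.9), and no 2 states had separate intervals. As a ratio, NK 1 stood 2.03-fold (1.15 to 3.79) above NK 4 in KO, and NK 2 stood 1.42-fold (1.07 to 1.92) above NK 4 in WT. These were the highest and lowest NK-like sub-clusters, picked from the same counts, which the intervals do not allow for.

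Egln1, the main HIF prolyl hydroxylase (chromosome 8, 124908587 to 124949324, minus strand), stood at 9.87 CPM (8.20 to 11.8) in KO and 8.71 CPM (7.41 to 10.2) in WT, from 122 and 158 UMIs, a log2 ratio of 0.16 (-0.17 to 0.53). In NK 1 it stood at 15.7 CPM (18 UMIs) in KO and 8.0 CPM (57 UMIs) in WT, a log2 ratio of 0.89 (0.12 to 1.76). Of 26 ratios of a member that rested on at least 50 UMIs within the 5 NK-like sub-clusters, this was the only one whose interval left out 0, against 18.0% of all 36207 such ratios over genes. In the 9 finer sub-clusters each interval of the Egln1 ratio held 0, as in the cells led by Emb, Cd27 and Tcf7 (0.85, -0.17 to 1.92). In NK 0, where KO cells were the more numerous, Egln1 had 8.32 CPM in KO and 6.07 CPM in WT, with overlapping intervals. No 2 states were apart in either library.

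Egln3 (chromosome 12, 54178981 to 54203860, minus strand) was the rarest member, with 28 UMIs in KO and 52 in WT, or 2.27 CPM (1.51 to 3.28) against 2.87 CPM (2.14 to 3.76). The log2 ratio was -0.24, and its interval, -1.06 to 0.35, allowed a more than 1.5-fold lower level in KO. Of the 80 UMIs, 34 came from 12 cells, 6 in each library, which clustered with NK 4 but were led by Insl5, Rhox5, Stard10 and Dntt. They had 92.4 CPM of Egln3 in KO (5 UMIs in 2 cells) and 212 CPM in WT (29 UMIs in 5 cells). These 12 cells had no Ncr1 UMI in KO and 2 in WT, 4 and 22 Cd3e UMIs, and Rhox5 at 942 and 711 CPM, so their leading genes do not bear out the NK name and they are left unnamed. Without them Egln3 stood at 1.87 CPM in KO and 1.28 CPM in WT, on 23 UMIs in each library, a log2 ratio of 0.33 (-0.35 to 1.45), and the rest of NK 4 held 0 KO and 2 WT Egln3 UMIs. The high Egln3 level of NK 4, 7.53 CPM in KO and 12.5 CPM in WT, rested on these cells, whereas Epas1 in NK 4 did not, as they held 1 of its 168 UMIs. Outside them the NK-like cells with most Egln3 UMIs were those of NK 0 in KO, with 19 UMIs or 2.72 CPM (1.64 to 4.25). NK 0 also held 1689 of the 2910 NK-like KO cells, and 5 of the 19 UMIs came from 1 cell. No Egln3 UMI was found in the 362 KO cells of NK 2, where the exact interval of a count of 0 reaches 2.74 CPM.

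Hif1an, which encodes FIH (chromosome 19, 44562850 to 44576274, plus strand), had 18.4 CPM (16.1 to 20.9) in KO and 19.2 CPM (17.2 to 21.3) in WT, from 227 and 348 UMIs. The log2 ratio was -0.06 (-0.31 to 0.18). Its order over the states differed between the libraries, with NK 2 highest in KO at 25.3 CPM and NK 1 highest in WT at 23.2 CPM, and no 2 states had separate intervals in either. Without cells that carried UMIs of 3 or more S and G2M genes the ratio was -0.34, the lowest of its alternatives. Such cells numbered 1222 of 2910 in KO and 1802 of 3310 in WT, a share that also moves with depth, and their part in the result was not tested further.

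Other genes of the pathway were read by list, with at least 50 UMIs in NK-like cells, beside the 10363 genes of that depth, of which 6.9% passed 1.5-fold upward and 4.06% downward in KO, with a median log2 ratio of 0.05. The relatives and partners of the HIF subunits had 3 measured members, none past 1.5-fold, with Ahr, the dioxin receptor that also pairs with ARNT, at 17.1 against 13.0 CPM (log2 ratio 0.37), the clock subunit Arntl at 0.53 and its partner Clock at -0.21. Of 10 genes of the VHL ligase and its neddylation, none was past 1.5-fold and the median was -0.09. The neddylation enzyme Ube2m was furthest, at 42.0 against 56.1 CPM (-0.41), followed by the elongin B gene Tceb2 (-0.24) and Nedd8 (-0.23). Of 20 cofactors and regulators, 1 was lower and none higher. That was Pkm, the pyruvate kinase that also binds HIF-1α, at 340 against 517 CPM (-0.60), and the coactivator Crebbp stood at 0.47 and the ubiquitin ligase subunit Fbxw7 at 0.45.

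The list of other oxygen-using dioxygenases holds enzymes that use 2-oxoglutarate, as the hydroxylases do, and the cysteamine dioxygenase Ado. Of its 19 measured members, 2 were at least 1.5-fold higher in KO, none was lower, and the median was 0.18. Both are histone demethylases: Kdm6b stood at 393 against 121 CPM (log2 ratio 1.70) and Kdm2b at 282 against 104 CPM (1.43), while Kdm5a was at 0.34. At WT shares of the sub-clusters, Kdm6b had a ratio of 0.74 and Kdm2b 0.42, and Kdm2b was among the leading genes of the Vegfa-led cells, which were mostly from KO. Genes that supply 2-oxoglutarate and iron, the co-substrate and cofactor of the hydroxylases, had a median of 0.03 over 17 members. Of the 17, 2 were higher past 1.5-fold, the iron carrier Slc11a2 (39.3 against 24.4 CPM, 0.67) among them, and none was lower past it. The iron sensor Ireb2 stood at 0.44. At WT shares of the sub-clusters Ireb2 had 0.69 and Slc11a2 0.48. Of 21 genes of the mTOR, NF-κB, STAT and cytokine signals that act on Hif1a, 4 were higher and none lower, with a median of 0.27. They were Nfkb1 (295 against 146 CPM, 1.01), Tgfbr1 (17.3 against 10.6 CPM, 0.66), Stat3 (389 against 252 CPM, 0.63) and Rptor (0.59, named after its value was seen). When sub-clusters took their WT shares none of the 21 was past 1.5-fold.

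Of 30 measured HIF targets other than Egln1 and Egln3, 6 were higher and 8 lower in KO past 1.5-fold, with a median log2 ratio of -0.23. Vegfa, the angiogenic growth factor, stood at 298 CPM in KO and 59.2 CPM in WT (2.31), and Ier3 at 16.8 and 3.36 CPM (2.03). Ankrd37, a textbook HIF target, was lower, at 2.51 against 11.0 CPM (-1.78). At WT shares of the sub-clusters the ratio of Vegfa was 0.50, within 1.5-fold, while Ier3 had 1.44 and Ankrd37 -1.93. The genes that follow were named after their values were seen. Of the others higher past 1.5-fold, Hilpda (0.53), Hk2 (0.30) and Rora (0.08) then fell within it and Pfkfb4 (0.81) did not. Of those lower, Fam162a (-0.46) and Aldoa (-0.51) fell within it, and Pdk1 (-0.59), Pgk1, Tpi1, Eno1 and Slc16a3 did not. Ndrg1 (-0.60) and P4ha1 (-0.80) came to lie past it downward. The median was then -0.21. Egln1 and Egln3, the 2 targets among the members, lay within 1.5-fold in either direction in these sums.

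For the 5 members with at least 500 UMIs in kept cells, the genes most alike over 11 points (a state in a library with at least 100 cells) were found by Pearson correlation of log2(CPM + 10). The 11 points share libraries and depth, and the values are descriptions. Hif1a was most like Myb (r = 0.90), Csnk1g3 (0.90) and Rbbp8 (0.88). Arnt was most like Slc25a33 (0.96), Pcmtd2 (0.95) and Fyn (0.95), and Vhl was most like Rapgef2 (0.92), Tlk1 (0.90) and Fmnl1 (0.90). Egln2 was most like Smim14 (0.92), Plekha5 (0.91) and Setd1a (0.90), and Hif1an had lower values, with Rgs3 (0.83), Lin7c (0.79) and Fut8 (0.78).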

How the data were processed

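Per the labels, tumor NK cells were profiled with a 10x Genomics 3′ library per genotype. The deposited tables hold raw UMI counts per gene and barcode, and the submitters' processing notes name Cell Ranger 2.0.2, Seurat and mm10 without their roles. The gene annotation and the calling of cells are not stated there. Cells below 500 genes or above 10% mitochondrial UMIs were left out, and the others were clustered without the 8 genes (scanpy 1.11.5, leidenalg 0.10.2; 2000 variable genes, 30 components, 15 neighbours, resolution 0.8, then 0.6 within NK-like cells). Clusters were named from markers, a mixed cluster was split again after its genes were seen, and doublets were not called. UMIs were summed per library and state. Log2 ratios have 1 CPM added. Intervals are exact Poisson for levels, exact conditional binomial for ratios (without the added 1 CPM) and Clopper-Pearson for shares, whose differences combine both libraries' intervals. Shares came from cells thinned to 2500 UMIs, for which 404 NK-like cells of KO and 89 of WT were too shallow. The ratio and its intervals were tested on simulated Poisson sums per library. Such sums hold no uneven spread of UMIs over cells, so they do not test the intervals in that respect. Named genes were all 8 members, the 3 most alike genes of each member with 500 UMIs, and from each list the 3 with the largest absolute ratio among those with 100 UMIs, of which 1 is not reported here. The members and lists were chosen with earlier results of these data known. Positions are from GENCODE M21 and promoters from RefSeq.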

Additional observations from a re-analysis of the deposited data

How the results depend on the processing

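No paired analysis was possible because each genotype had 1 library. Of 112 alternative values of the members' ratios, 104 stayed inside the interval of the reported value and none of the reported ratios was past 1.5-fold. The sign of Epas1 turned in 4 alternatives. Egln3, also reported below 0, stayed negative in 9 of 14. Hif1a and Egln1, reported above 0, were negative in 2 and 1 of 14. Epas1 (reported -0.48) moved to 0.052 without the 3% of cells with the most UMIs, -0.079 as a mean of per-cell CPM, 0.28 with the WT make-up of sub-clusters, 0.16 without cells carrying 3 or more S and G2M genes, and, in an alternative chosen after seeing the data, 0.29 without NK 4. Egln3 (reported -0.24) moved to 0.60, past 1.5-fold higher, without the 3% of cells with the most UMIs and 0.56 after thinning to 2500 UMIs, and Hif1an (-0.06) to -0.34 with the S and G2M cells left out. The cause was not tested, except that NK 4 held 168 of 230 Epas1 UMIs. Over finer sub-clusters (resolution 1.0) the fold from lowest to highest was 3.24 for Hif1a in KO, 2.52 in WT, and 4.59 for Hif1an in WT.

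The genes at least 1.5-fold higher (476) and lower (219) in KO became 715 and 421 with a minimum of 50 UMIs, 957 and 551 with at least 1 UMI, 234 and 102 with a pseudocount of 10 CPM, and 297 and 134 with the WT make-up. Median-of-ratios scaling shifted all ratios by -0.05. With the WT make-up, list members past 1.5-fold numbered 0 of the cofactors, 1 of the dioxygenases and 0 of the upstream signals. Of the 2-oxoglutarate and iron genes 1 was past it, Ireb2 (0.69), with Slc11a2 at 0.48. With cells carrying S and G2M genes left out, 0 of the cofactors were past 1.5-fold. Of the 2-oxoglutarate and iron genes 1 was then past it, Tfrc (1.33, named after its value was seen), with Slc11a2 at 0.47. The difference in the share of cells with a UMI (KO minus WT, in percentage points) was, without thinning, -3.81 for Hif1a, -0.73 for Epas1, -1.39 for Vhl, -0.56 for Egln1, -2.00 for Egln2 and -2.74 for Hif1an, the WT cells being the deeper, and at 4000 UMIs 2.23 for Hif1a, -1.89 for Egln2 and -2.07 for Hif1an.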

Other observations

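In single cells the 8 transcripts were sparse. At 2500 UMIs per cell, 63.9% of the NK-like cells in KO and 66.0% in WT had no UMI of any of them, 30.4% and 28.3% had UMIs of 1, and 5.31% of each library had UMIs of 2. Arnt was seen in 6.91% of KO cells with a Hif1a UMI and in 5.38% of those without, and in 5.22% and 4.68% of WT cells. Egln2 was seen in 10.2% and 9.94% of KO cells with and without Hif1a, and in 7.94% and 8.81% of WT cells. The exact 95% intervals overlapped in each of these 4 pairs. Cells with both UMIs were few, 23 for Arnt and 34 for Egln2 in KO, and 23 and 35 in WT. At this depth detection of Arnt or Egln2 could not be told apart between cells with and without a Hif1a UMI.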
